A study of Homo sapiens with 11 samples.

Results

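The genes described here are the collagen hydroxylases and lysyl oxidases, which modify and cross-link collagen. They were taken by symbol from the count table and comprise the prolyl 4-hydroxylase subunits P4HA1, P4HA2 and P4HB, the lysyl hydroxylases PLOD1, PLOD2 and PLOD3, and the lysyl oxidases LOX, LOXL1, LOXL2 and LOXL4. These are 10 of the 60676 genes in the table, and each of the 10 was found. All libraries came from 1 cell line, RWPE1, which was immortalized from human prostate epithelium and does not form tumours. RNA was sequenced from 3 normoxic libraries (0 h) and from cells held at 1% oxygen for 6 h (3 libraries), 12 h (3 libraries) or 24 h (2 libraries). According to the labels, the hypoxic medium also held 10 mM HEPES, a pH buffer, so that low oxygen and the buffer cannot be told apart in any comparison with 0 h. All cultures shared a serum-free keratinocyte medium with pituitary extract and EGF. The labels number the replicates but do not say that they were separate cultures, so that the p-values measure the spread between these libraries, which may be technical.

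Collagen chains are hydroxylated in the endoplasmic reticulum (ER) before they fold. Prolyl 4-hydroxylase, made of catalytic alpha subunits (P4HA1 or P4HA2) and the beta subunit P4HB, forms the hydroxyproline that keeps the triple helix stable at body temperature. The lysyl hydroxylases form hydroxylysine, which carries sugars and sets the chemistry of later cross-links. Both kinds of enzyme consume molecular oxygen and 2-oxoglutarate and need iron and ascorbate. Outside the cell the lysyl oxidases, which are copper enzymes that also consume oxygen, convert lysine and hydroxylysine into aldehydes from which the cross-links form. Several of these genes are known targets of the hypoxia-inducible factors (HIF), and epithelial cells use them to build the basement membrane.

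The counted reads per library ran from 27496009 to 49488345, and 19981 genes passed the filter on low counts. Values per library are CPM (counts divided by the scaled library total and multiplied by 1000000) computed with TMM factors, which assume that most genes do not change. These factors ran from 0.539 in 24 h replicate 2 to 1.32 in a normoxic library. Log2 fold changes, their standard errors (SE) and their p-values came from edgeR's quasi-likelihood test, and a gene was called where the Benjamini-Hochberg adjusted p was under 0.05. As a check of the labels, the HIF targets EGLN3 and CA9 were called higher at each time point, with log2 fold changes of 6.23, 6.45 and 6.77 for EGLN3 and 3.17, 4.40 and 5.68 for CA9. The epithelial identity was checked with 12 markers, all of which had a mean of at least 1 CPM. Their summed level was 9492 to 12518 CPM at 0 h and 13605 to 24551 CPM in the hypoxic libraries. Most of this sum was KRT5, with means of 7277 CPM at 0 h and 12305 CPM in hypoxia. The markers did not move together. KRT15, TP63 and ITGB4 fell from means of 292, 242 and 358 CPM to 113, 95.8 and 307 CPM. KRT19 (475 and 474 CPM) and CDH1 (324 and 321 CPM) hardly differed, and the remaining markers had higher means in hypoxia. Of 12 fibroblast and smooth muscle markers, 4 (COL1A1, TAGLN, MYH11 and ACTA2) had a mean of at least 1 CPM. The summed level of the 12 was 55.6 to 73.6 CPM at 0 h and 51.1 to 77.3 CPM in hypoxia. The defining fibroblast genes PDGFRA, DCN, LUM and COL3A1 were at or near 0, and no endothelial or leukocyte marker (0 of 5 each) reached a mean of 1 CPM. In bulk RNA, fewer cells of a kind and less RNA per cell cannot be told apart.

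Short stretches of promoter sequence are shown for P4HA1, PLOD2 and LOX, which had large increases at 6, 12 and 24 h. LOXL2 had such increases too, but its promoter was not analysed here. P4HB and PLOD3 were also called higher at these 3 times, with smaller changes, and their sequence is not printed. HIF is known to bind the motifs ACGTG and GCGTG. RefSeq promoter windows (GRCh38.p14) of the 250 bases before the start were found for 9 of the 10 genes, all but LOXL2, and both motifs were searched on both strands. LOX had 4 matches to ACGTG, PLOD2 had 2 to ACGTG and 1 to GCGTG, P4HA1 had 1 to ACGTG, PLOD1 had 2 to GCGTG and P4HB had 1 to GCGTG. P4HA2, PLOD3, LOXL1 and LOXL4 had none in the single window searched for each. In GENCODE the P4HA2 gene reaches upstream to chr5:132295315, far from its window at chr5:132227092-132227341. The GENCODE genes of PLOD3 and LOXL1 also begin upstream of their windows. These farther starts were not searched, so the absence of a match applies to the windows alone. Of 27305 promoter windows of the same length 18.6% held ACGTG, 31.9% held GCGTG and 43.1% held either. ACGTG is also part of the E-box CACGTG, which 6.46% of the windows and none of the 9 held. For LOX, which has 3 starts in RefSeq, the one farthest upstream was used. The matches of the 3 genes are printed 5′ to 3′ in the direction of the gene with 8 bases on each side, and the capitals mark the match (CACGT is ACGTG on the other strand). All 3 genes lie on the minus strand.
P4HA1, 86 bases before the start: atcgagctCACGTagcgaggg
PLOD2, 213 bases before the start: gaagcgctGCGTGagcctcca
PLOD2, 200 bases before the start: agcctccaCACGTagccgcag
PLOD2, 146 bases before the start: cagtccagACGTGgggcccag
LOX, 185 bases before the start: cctgtgcaACGTGtctggggg
LOX, 116 bases before the start: ccgccttgCACGTttccaatc
LOX, 98 bases before the start: atcgcattACGTGaacaaata
LOX, 42 bases before the start: ctttgcaaACGTGccagaaag

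In the same order, these stretches lie at chr10:73096940-73096960 for P4HA1, at chr3:146161385-146161405, chr3:146161372-146161392 and chr3:146161318-146161338 for PLOD2, and at chr5:122078432-122078452, chr5:122078363-122078383, chr5:122078345-122078365 and chr5:122078289-122078309 for LOX. GENCODE release 44 annotates further transcripts of these genes that start upstream of the RefSeq start, and every stretch except the LOX one 185 bases before the start overlaps an exon of such a transcript. A match to 5 letters is a description of the sequence and not evidence of binding.

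Against normoxia, most of these genes were higher in hypoxia and 1 was lower, although the small increases depended on the scaling between libraries. Of the 10 genes 9 passed the filter. At 6 h 6 were called higher (P4HA1, P4HB, PLOD2, PLOD3, LOX and LOXL2), 1 lower (LOXL1) and 2 were not called, where 25.1% of all tested genes were called higher, 27.7% lower and 52.8% in either direction. At 12 h and at 24 h 7 were called higher, PLOD1 having joined the 6, LOXL1 was called lower and P4HA2 was not called. The shares of all tested genes called in either direction were then 51.2% and 61.2% (24.2% higher and 27.1% lower at 12 h, 29.9% higher and 31.3% lower at 24 h). The median log2 fold change of the 9 genes was 0.72, 0.57 and 0.76 at 6, 12 and 24 h, against -0.0021, -0.033 and -0.065 over all tested genes. The 3 comparisons share the normoxic libraries. At 6, 12 and 24 h the values in hypoxia and in normoxia were fully separate for 7, 8 and 9 of the 9 genes, which was also true of 69.6%, 72.3% and 73.0% of all tested genes.

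**Figure D1:**
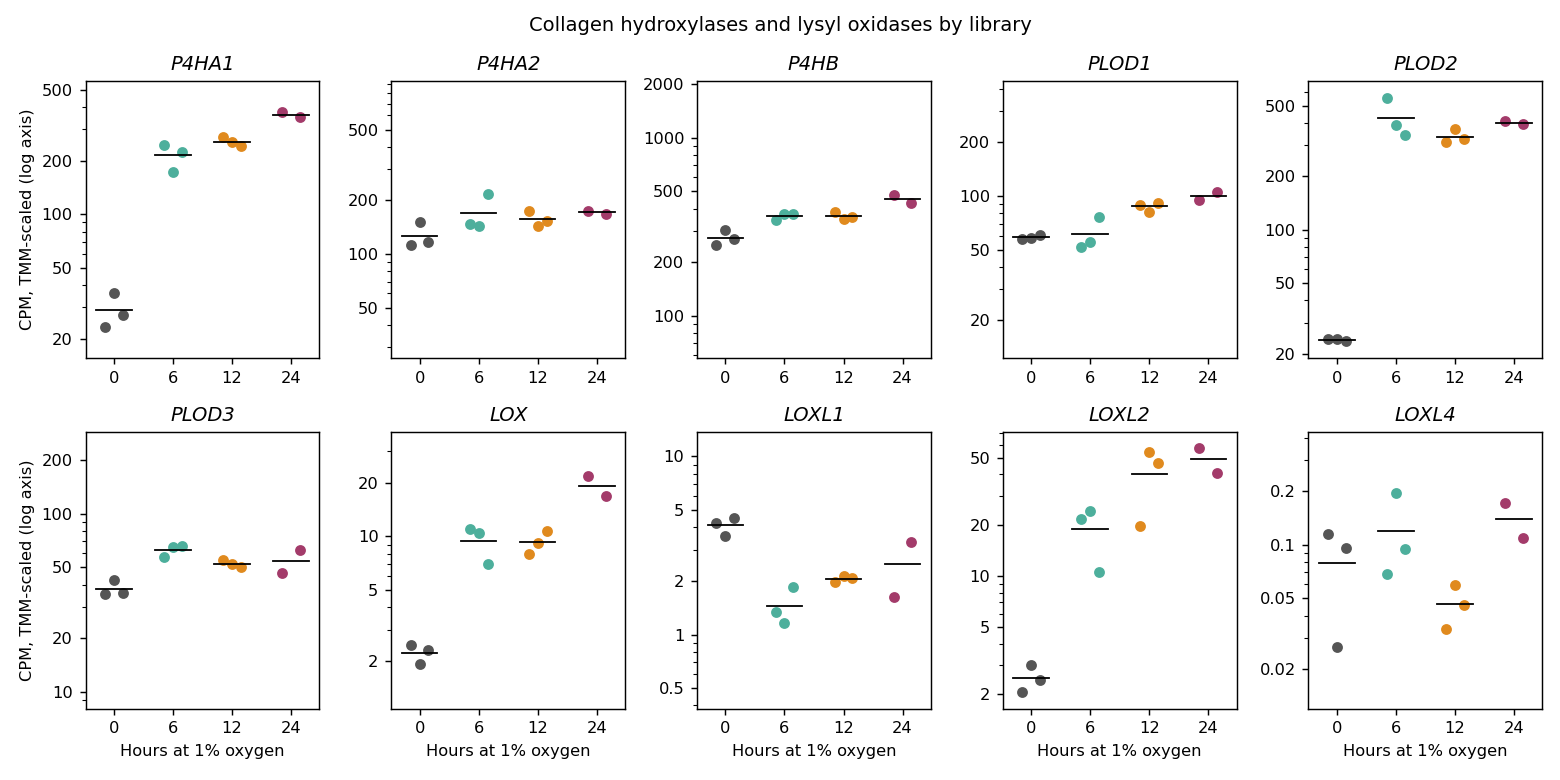
Level of each of the 10 genes in each library (points; CPM scaled with TMM factors, logarithmic axis) by hours at 1% oxygen, with the mean of each time point as a line. P4HA1, PLOD2, LOX and LOXL2 lie above their normoxic libraries in all 8 hypoxic libraries and LOXL1 lies below, while P4HA2 overlaps at 6 and 12 h and LOXL4 has at most 6 counts in any library.

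The changes differed in size. P4HA1, PLOD2, LOX and LOXL2 changed by log2 fold changes of 2.06 to 4.30 over the 3 time points, and each was called at each time point in all 20 alternative analyses. The changes of P4HA2, P4HB, PLOD1 and PLOD3 lay between 0.057 and 0.76. With library size alone in place of the TMM factors, the median log2 fold change over all tested genes moved to -0.32, -0.50 and -0.97 at 6, 12 and 24 h, and at 24 h P4HA2, P4HB, PLOD1 and PLOD3 stood at -0.47, -0.17, -0.17 and -0.44. Under that scaling 5, 4 and 4 of the 9 genes were called higher and 1, 1 and 2 lower at 6, 12 and 24 h. Values below are TMM-scaled unless stated otherwise.

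**Figure D2:**
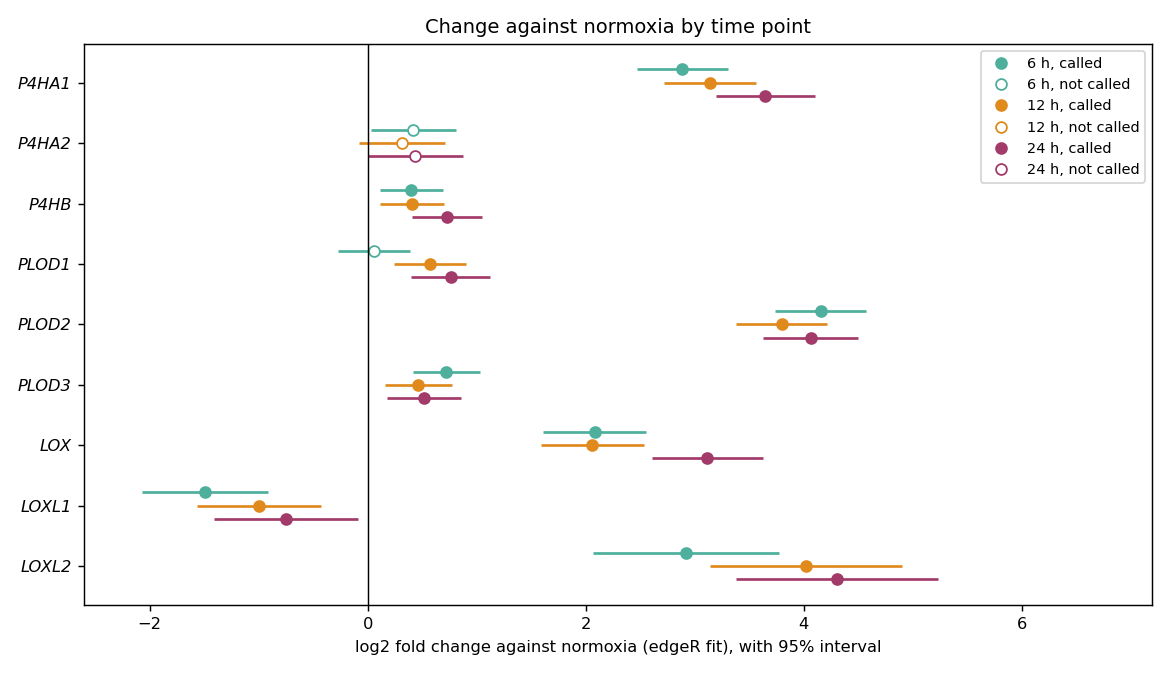
Log2 fold change of the 9 tested genes against normoxia (edgeR quasi-likelihood fit) with its 95% interval at 6, 12 and 24 h, filled where called at an adjusted p under 0.05. PLOD2 (4.16, 3.80 and 4.06) and LOXL2 (2.92, 4.02 and 4.30) lie farthest to the right, and the values of P4HA2, P4HB, PLOD1 and PLOD3 near 0 turn negative at 24 h when scaled by library size alone.

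Among the prolyl 4-hydroxylase subunits P4HA1 rose strongly, P4HA2 was not called, and P4HB had small increases that reversed at 12 and 24 h with library size alone. P4HA1 (ENSG00000122884, GRCh38 chr10:73007217-73096974, minus strand) encodes a catalytic subunit. It stood at 23.2, 36.4 and 27.3 CPM in the normoxic libraries. In hypoxia it stood at 246, 173 and 223 CPM at 6 h, at 12 h at 272, 254 and 240.4 CPM, and at 24 h at 375 and 351 CPM. Every hypoxic library exceeded the highest normoxic library, and both 24 h libraries exceeded all others. With library size alone 24 h replicate 2 stood at 189 CPM. That was below every 12 h library (225 to 252 CPM) and below 6 h replicates 1 (258 CPM) and 3 (238 CPM). Against 0 h the log2 fold changes of P4HA1 were 2.89 (SE 0.19), 3.14 (SE 0.20) and 3.65 (SE 0.21), with edgeR adjusted p = 6.56e-07, 6.56e-07 and 3.30e-07. The change of P4HA1 from 12 to 24 h was 0.51 (95% interval 0.075 to 0.94) and was not called by edgeR (adjusted p = 0.0732), while DESeq2 called it (0.54, adjusted p = 0.0385). With library size alone it was 0.073.

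P4HA2 (ENSG00000072682, chr5:132190147-132295315, minus strand), an alternative catalytic subunit, was not called at any time point. Its normoxic libraries held 112, 152 and 117 CPM. After 6 h the values were 148, 144 and 218 CPM, at 12 h 175, 144 and 154 CPM, and at 24 h 175 and 169 CPM. Normoxic replicate 2 lay above some hypoxic libraries, and replicate 3 at 6 h was the highest of all. P4HA2 had log2 fold changes of 0.42 (95% interval 0.026 to 0.81), 0.31 (-0.080 to 0.71) and 0.44 (0.0030 to 0.87), with edgeR adjusted p = 0.0684, 0.167 and 0.0749. These intervals leave room for a change of up to 0.87 and do not show that P4HA2 stayed level, and its sign turned at 12 and 24 h with library size alone (-0.16 and -0.47). Without normoxic replicate 2 it was called at 6 h (0.56, edgeR adjusted p = 0.0396) and at 24 h (0.58, adjusted p = 0.0392), and single calls also appeared without replicate 2 of 6 h or of 24 h (0.53 and 0.40 at 6 h) and without replicate 3 of 6 h (0.44 at 24 h). Quality weights also gave a call at 6 h (0.38, limma adjusted p = 0.0230). At 12 h it was called only with quality weights (0.34) and with the compared time points alone (0.32).

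P4HB (ENSG00000185624, chr17:81843159-81860856, minus strand) encodes the beta subunit, which is protein disulfide isomerase and also serves other proteins of the ER. It held 251, 303 and 272 CPM in normoxia. Hypoxic values were 346, 372 and 373 CPM at 6 h, at 12 h 383, 349 and 362 CPM, and at 24 h 481 and 432 CPM. The hypoxic libraries were all above the normoxic ones. Its log2 fold changes of 0.40, 0.41 and 0.73 (SE 0.13, 0.13 and 0.15) were called, with edgeR adjusted p = 0.0238, 0.0233 and 0.00104, though with library size alone they were 0.079, -0.065 and -0.17. Those at 6 and 12 h were fragile. Without normoxic replicate 1 they were 0.33 (adjusted p = 0.120) and 0.34 (adjusted p = 0.117), and without normoxic replicate 3 they were 0.38 and 0.39, again not called. The call at 6 h was also lost without 6 h replicate 2 or 3 (0.39 and 0.38), and that at 12 h without any single 12 h library (0.37 to 0.41). Both were lost without a filter on low counts (0.36 and 0.39) and with at least 10 counts in every library (0.31 and 0.30). DESeq2 alone called a further step from 12 to 24 h (0.35, adjusted p = 0.0156), against 0.32 (adjusted p = 0.120) by edgeR.

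The lysyl hydroxylases showed the same kind of contrast, with PLOD2 far ahead of PLOD1 and PLOD3. PLOD2 (ENSG00000152952, chr3:146035139-146163725, minus strand) encodes the enzyme that hydroxylates lysines in the telopeptides, the ends of the chains where cross-links form. The 3 normoxic libraries were close together at 24.1, 24.2 and 23.7 CPM. At 6 h PLOD2 reached 550.4, 389.8 and 344 CPM, at 12 h 312, 367 and 323 CPM, and at 24 h 411 and 392 CPM. The lowest hypoxic library was thus far above the highest normoxic one. For PLOD2 the log2 fold changes were 4.16 (SE 0.19), 3.80 (SE 0.19) and 4.06 (SE 0.20), with edgeR adjusted p = 2.76e-07, 3.66e-07 and 1.77e-07. By size of increase PLOD2 ranked 97, 114 and 121 of the 19981 tested genes. No later step passed the test (12 h against 6 h -0.36, 95% interval -0.73 to 0.011, and 24 h against 12 h 0.27, 95% interval -0.14 to 0.68).

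PLOD1 (ENSG00000083444, chr1:11934205-11975538, plus strand) encodes the enzyme that hydroxylates lysines within the helix. Its normoxic libraries held 57.3, 58.2 and 60.7 CPM. After 6 h it stood at 51.9, 54.9 and 76.5 CPM, at 12 h 89.4, 81.3 and 91.4 CPM, and at 24 h 94.6 and 105 CPM. The 6 h libraries lay on both sides of the normoxic ones, and the later libraries were all above them. The log2 fold change of PLOD1 was 0.057 (95% interval -0.27 to 0.39, adjusted p = 0.768) at 6 h, 0.57 (0.24 to 0.90, adjusted p = 0.00760) at 12 h and 0.76 (0.40 to 1.13, adjusted p = 0.00178) at 24 h by edgeR, and with library size alone it was -0.26, 0.10 and -0.17. The step from 6 to 12 h, 0.52, had an edgeR adjusted p of 0.0716 and was not called. Without replicate 3 of 6 h it was 0.71 and was called (adjusted p = 0.0149), as it was without either 24 h library (0.51 and 0.52).

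PLOD3 (ENSG00000106397, chr7:101205977-101218420, minus strand), whose product also adds sugars to hydroxylysine, held 35.5, 42.6 and 36.1 CPM in normoxia. It held 57.4, 65.5 and 65.6 CPM at 6 h, 55.1, 52.2 and 50.3 CPM at 12 h, and 46.8 and 62.4 CPM at 24 h. All hypoxic libraries lay above the normoxic ones, and 24 h replicate 1 came closest to them. Its log2 fold changes were 0.72, 0.46 and 0.52 (SE 0.14, 0.14 and 0.16), with edgeR adjusted p = 0.00104, 0.0158 and 0.0122, and turned to -0.0061 and -0.44 at 12 and 24 h with library size alone. At 24 h the value was 0.28 (adjusted p = 0.120) without 24 h replicate 2, the library with the lowest TMM factor. At 12 h the call was lost without normoxic replicate 1 (0.41), normoxic replicate 3 (0.42) or 12 h replicate 2 (0.43), and at 24 h without normoxic replicate 1 or 3 (0.46 and 0.47). Without a filter on low counts both calls were lost (0.44 and 0.40), with quality weights that at 24 h was lost (0.54, adjusted p = 0.118), and the -0.44 with library size alone was itself called lower (adjusted p = 0.0350). Of the exonic bases of PLOD3 1.80% overlap ZNHIT1 on the other strand, which stood at 26.6 to 61.5 CPM in the other libraries and at 167 CPM in 24 h replicate 2. The strand setting of the read counting is not given in the sources used here, and the part of ZNHIT1 in the PLOD3 counts was not tested.

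The lysyl oxidases moved apart, with LOX and LOXL2 higher and LOXL1 lower. LOX (ENSG00000113083, chr5:122063195-122078413, minus strand) encodes the founding enzyme of the family. It held 2.45, 1.92 and 2.31 CPM in normoxia. After 6 h it stood at 10.97, 10.5 and 6.96 CPM, at 12 h 8.02, 9.16 and 10.7 CPM, and at 24 h 21.7 and 16.9 CPM. Hypoxic and normoxic libraries were well apart, and both 24 h libraries were above all earlier ones. With library size alone 24 h replicate 2 stood at 9.10 CPM, within the 12 h libraries (7.29 to 10.0 CPM). LOX had log2 fold changes of 2.08 (SE 0.22), 2.06 (SE 0.22) and 3.11 (SE 0.24), with edgeR adjusted p = 1.07e-05, 1.68e-05 and 1.25e-06. From 12 to 24 h LOX rose again, by 1.05 (SE 0.22, edgeR adjusted p = 0.00577, higher in 2 of 2 libraries). That call was lost with library size alone (0.64, adjusted p = 0.115), with quality weights (0.95, adjusted p = 0.128) and with only the compared time points in the fit (1.03, adjusted p = 0.0660).

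LOXL2 (ENSG00000134013, chr8:23296897-23425328, minus strand), whose product cross-links the collagen IV of basement membranes, showed a large increase and a wide spread at 6 and 12 h. It held 2.06, 2.99 and 2.43 CPM in normoxia. At 6 h it held 21.8, 24.4 and 10.6 CPM, at 12 h 19.8, 54.6 and 47.0 CPM, and at 24 h 57.3 and 40.9 CPM. Replicate 3 was the low library at 6 h and replicate 1 the low one at 12 h, each still above all normoxic libraries. Log2 fold changes of 2.92 (SE 0.39), 4.02 (SE 0.41) and 4.30 (SE 0.43) were found, with edgeR adjusted p = 6.86e-05, 1.26e-05 and 5.93e-06. By size of increase LOXL2 ranked 305, 93 and 105 of the 19981 tested genes. The change from 6 to 12 h was 1.10 (95% interval 0.33 to 1.87) and was not called (edgeR adjusted p = 0.0988), but it was 1.43 without 12 h replicate 1 and was then called (adjusted p = 0.0307), as it was without 24 h replicate 1 (1.11) or 2 (1.13).

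LOXL1 (ENSG00000129038, chr15:73925989-73952137, plus strand), whose product is known for its work on elastic fibres, was the 1 gene that fell. It held 4.23, 3.60 and 4.52 CPM in normoxia. At 6 h it held 1.33, 1.17 and 1.84 CPM, at 12 h 1.96, 2.13 and 2.08 CPM, and at 24 h 1.63 and 3.32 CPM. Every hypoxic library was below every normoxic library, though 24 h replicate 2 was close to normoxic replicate 2. Its fall amounted to log2 fold changes of -1.49 (SE 0.27), -1.0 (SE 0.26) and -0.75 (SE 0.30), with edgeR adjusted p = 5.51e-04, 0.00701 and 0.0479. The call at 24 h was fragile. It was lost in 13 of the 20 alternatives, 9 of which left out 1 library (each normoxic and each 12 h library, 6 h replicates 1 and 2 and 24 h replicate 1). Without 24 h replicate 1 the value was -0.36 (adjusted p = 0.279), and in the other 8 it lay between -0.84 and -0.68. Of the exonic bases of LOXL1 9.21% overlap the antisense gene LOXL1-AS1, which fell as well, from 3.99 to 4.51 CPM at 0 h to 0.856 to 1.85 CPM in hypoxia. Without a known strand setting the reads of this pair cannot be told apart in the shared part.

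LOXL4 (ENSG00000138131, chr10:98247690-98268194, minus strand) had 1 to 6 counts in each of the 11 libraries, and a change was not detectable at this depth. It was left out by the filter, so the counts of called genes cover 9 of the 10.

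Replicate 3 of 6 h stood apart from its group in several genes at once. It had the lowest PLOD2, LOX and LOXL2 and the highest P4HA2, PLOD1 and LOXL1 of the 3 libraries at 6 h. Without it the log2 fold changes at 6 h were between 2.86 and 4.29 for P4HA1, PLOD2 and LOXL2 and 2.27 for LOX. All 4 remained called.

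**Figure D3:**
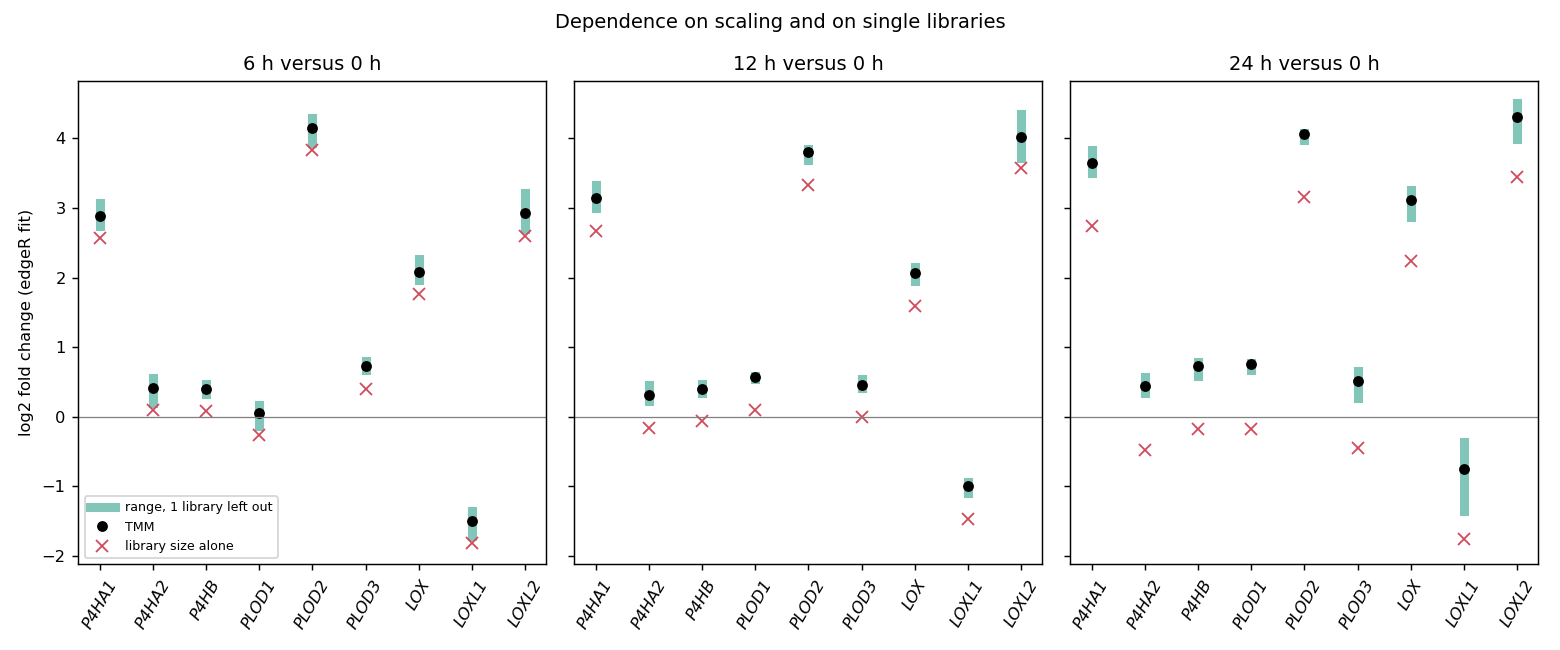
Log2 fold change against normoxia (edgeR fit) of the 9 tested genes at 6, 12 and 24 h, with TMM factors (black points), with library size alone (crosses) and as the range when 1 library at a time is left out (bars). P4HA1, PLOD2, LOX and LOXL2 stay above 1 and LOXL1 below 0 in each case, while P4HA2, P4HB, PLOD1 and PLOD3 turn negative at 24 h with library size alone.

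Between hypoxic time points little was resolved. No gene of the 9 was called from 6 to 12 h by edgeR, where 4.95% of all tested genes were called (1.88% higher and 3.07% lower). At an unadjusted p under 0.05 there were 2, PLOD1 and LOXL2, and DESeq2 called the same 2. limma-voom called 0, and limma-voom with sample quality weights called 3, adding PLOD3 as lower (-0.31). The libraries of 6 and 12 h were separate for 3 of the 9 genes, PLOD1 and LOXL1 (higher at 12 h) and PLOD3 (lower at 12 h), as for 31.6% of all tested genes. From 12 to 24 h LOX alone was called, where 28.4% of all tested genes were (15.1% higher and 13.3% lower), and 3 genes had an unadjusted p under 0.05. The libraries of 12 and 24 h were separate for 5 of the 9 genes, as for 49.1% of all tested genes. The 5 were LOX, P4HA1, P4HB, PLOD1 and PLOD2, each higher at 24 h. With library size alone their log2 fold changes between these times were 0.64, 0.073, -0.10, -0.27 and -0.18, in that order.

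Within each family the ratio of the genes shifted. Such a ratio is taken within a library and does not depend on the scaling between libraries. P4HA1 over P4HA2, as a log2 ratio of counts per kilobase of exons, was -0.43 ± 0.11 (SD, n = 3) in normoxia and 2.37 ± 0.36 (SD, n = 8) in hypoxia. P4HA1 over P4HB moved from -1.42 ± 0.19 to 1.28 ± 0.26. PLOD2 over PLOD1 moved from -2.74 ± 0.060 to 0.83 ± 0.56 (means of 1.35, 0.48 and 0.56 at 6, 12 and 24 h), and PLOD2 over PLOD3 from -2.02 ± 0.14 to 1.39 ± 0.31. In these 4 ratios and in LOX over LOXL1 (-1.51 ± 0.092 to 1.96 ± 0.65) the 8 hypoxic libraries were all above the 3 normoxic ones. LOX over LOXL2 moved the other way, from -0.055 ± 0.45 to -1.34 ± 0.63 (means of -0.84, -1.91 and -1.24 at 6, 12 and 24 h). Its groups overlapped slightly, with a lowest normoxic value of -0.54 and a highest hypoxic value of -0.51. Of 7 ratios compared, the first 5 had p = 0.0121 by an exact two-sided permutation test, the smallest p that the splits of 11 libraries into 8 and 3 allow, and an adjusted p of 0.0141. LOX over LOXL2 had an exact permutation p of 0.0242 (adjusted p = 0.0242). The seventh, LOX over LOXL4 (4.13 to 6.15, exact permutation p = 0.0121), rests on the 1 to 6 LOXL4 counts.

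**Figure D4:**
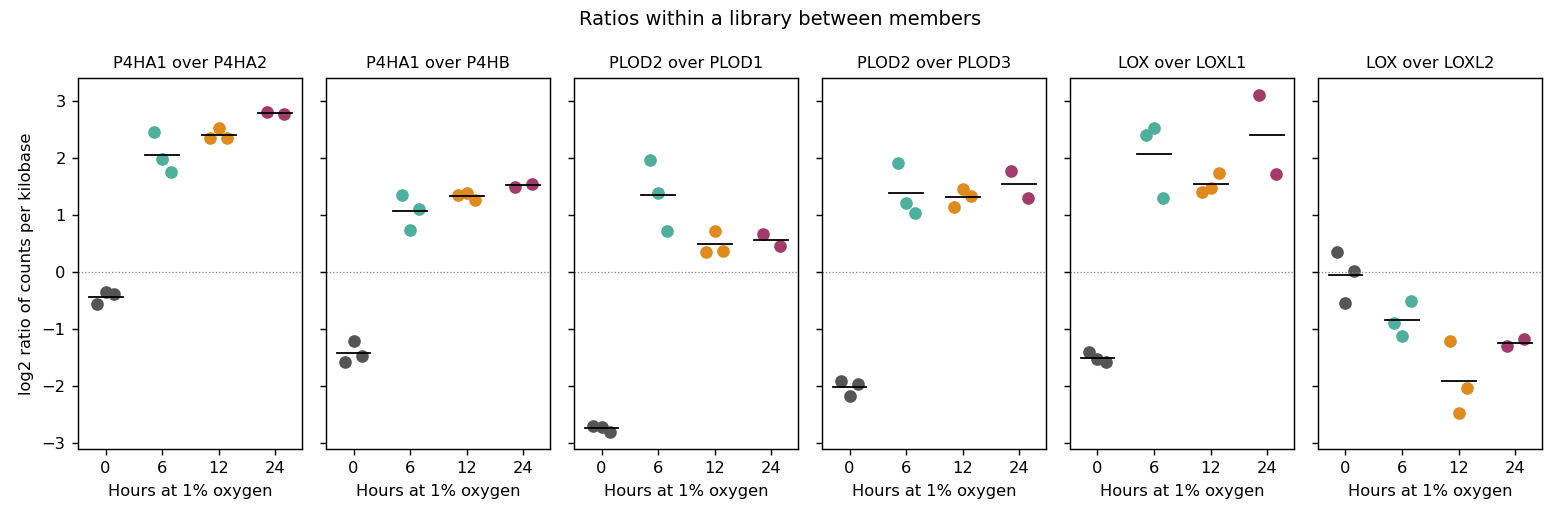
Log2 ratio of counts per kilobase of exons between pairs of genes within each library (points), by hours at 1% oxygen, with the mean of each time point as a line and equality dotted. In the first 5 panels the normoxic libraries lie below 0 and the 8 hypoxic libraries above 0, and LOX over LOXL2 falls from -0.055 to -1.34 on average.

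As shares of the family per kilobase, P4HA1 made up 42.6% ± 1.86 (SD, n = 3) of the 2 alpha subunits at 0 h and 80.4% ± 3.79 (n = 3), 84.2% ± 0.920 (n = 3) and 87.4% ± 0.210 (n = 2) at 6, 12 and 24 h. PLOD2 made up 8.53% ± 0.325 of the 3 lysyl hydroxylases at 0 h and 56.1% ± 8.99, 47.2% ± 3.19 and 49.5% ± 3.77 later. PLOD1, the leading lysyl hydroxylase at 0 h with 56.9% ± 2.29, held 22.3% ± 6.13 at 6 h and 33.4% ± 1.00 at 24 h. LOXL1 led the 4 lysyl oxidases at 0 h with 57.4% ± 3.12 and held 5.84% ± 3.72 at 24 h. LOXL2 went from 21.3% ± 5.14 to 65.9% ± 3.77, and LOX from 20.2% ± 1.79 to 27.9% ± 0.0933. The leading gene of each of the 3 families thus differed between 0 and 24 h. These shares depend on the length assumed for each gene. With the longest transcript in place of all exons, P4HA1 went from 26.6% to 77.2% and PLOD2 from 10.97% to 56.5%.

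On the same scale of CPM per kilobase, the order of levels at 0 h was P4HB (24.7), P4HA2 (12.5), PLOD1 (11.04), P4HA1 (9.36), PLOD3 (6.71), PLOD2 (1.65), LOXL1 (1.13), LOXL2 (0.416), LOX (0.398) and LOXL4 (0.0221). The libraries of neighbours overlapped from P4HA2 through PLOD1 and P4HA1 to PLOD3, and for LOXL2 and LOX. At 24 h the order of levels was P4HA1 (117), P4HB (41.0), PLOD2 (27.7), PLOD1 (18.7), P4HA2 (17.0), PLOD3 (9.62), LOXL2 (8.20), LOX (3.45), LOXL1 (0.681) and LOXL4 (0.0389). Of these neighbours PLOD3 and LOXL2 overlapped. By these means the 4 lysyl oxidases were the lowest of the 10 genes at 0, 6, 12 and 24 h. The order also depends on the length assumed for each gene. With the longest transcript in place of all exons, PLOD2 (70.1 and 66.8) lay above P4HB (58.6 and 52.6) at 24 h. P4HA2 (38.5 and 37.0) then lay above PLOD1 (31.8 and 35.2). At 0 h P4HA1 (8.17 to 12.8) and PLOD3 (12.6 to 15.1) changed places, with overlap.

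The genes around these enzymes in the collagen pathway were followed with 4 lists. Of the 18 tested genes for folding and modification of collagen in the ER, 9, 9 and 12 were called higher and 3 were called lower at 6, 12 and 24 h. The 9, 9 and 12 are 50%, 50% and 66.7% of the list, against 25.1%, 24.2% and 29.9% of all tested genes, and the 3 are 16.7%, against 27.7%, 27.1% and 31.3%. The median log2 fold change of the list was 0.41, 0.42 and 0.91, against -0.0021, -0.033 and -0.065 over all tested genes. SERPINH1, the collagen chaperone HSP47, stood at 39.5 to 45.1 CPM at 0 h, at 324 to 467 CPM at 6 h and at 198 to 280 CPM at 24 h (log2 fold changes 3.14, 2.98 and 2.50). P3H2, a prolyl 3-hydroxylase active on collagen IV, rose from a mean of 18.4 CPM at 0 h to 57.4 CPM at 6 h (1.64, 1.74 and 1.44). FKBP14, a prolyl isomerase of the ER, rose from a mean of 11.99 CPM at 0 h to 38.4 CPM at 6 h (1.68, 1.13 and 1.05). The 3 genes called lower at each time point, named after their values were seen, were P3H4, FKBP9 and MIA2. P3H4 is a partner of the lysyl and prolyl hydroxylases in the ER, and it stood at -0.68, -0.76 and -1.47. With library size alone 5, 3 and 1 genes of this list were called higher and 4, 4 and 5 lower, and the calls of P3H2 and FKBP14 at 24 h were lost (0.55 and 0.14).

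The chains themselves are the substrates of the hydroxylases. Of 24 tested chains 10, 8 and 7 were called higher and 4, 4 and 4 lower at 6, 12 and 24 h. The share called in either direction, 58.3%, 50% and 45.8%, was near or below the 52.8%, 51.2% and 61.2% of all tested genes. The median log2 fold change was 0.49, 0.035 and 0.032, against -0.0021, -0.033 and -0.065 over all tested genes. COL4A1 and COL4A2, the main chains of basement membrane collagen, had log2 fold changes of 1.22, 0.78 and 0.52 and of 1.07, 0.62 and 0.78. COL6A1, a chain of the microfibrillar collagen VI, had 0.66, 0.75 and 1.3 at 1.92 to 2.69 CPM in normoxia. All 9 values were called. COL6A1 lost its call at 6 h without any normoxic library, 6 h replicate 2 or 3, or 12 h replicate 2 (0.52 to 0.74), and at 12 h without normoxic replicate 3 (0.60) or 12 h replicate 1 (0.65). COL4A1 lost it at 24 h without normoxic replicate 3 (0.47) or 24 h replicate 2 (0.33), and COL4A2 at 12 h without normoxic replicate 3 (0.53) or 12 h replicate 2 (0.48) and at 24 h without 24 h replicate 2 (0.46). At 24 h quality weights ended the calls of both (0.51 and 0.77), and COL4A1 was not called without a filter (0.41). With library size alone 5, 1 and 1 chains were called higher and 6, 8 and 14 lower, COL6A1 was called at none of the 3 times (0.34, 0.28 and 0.34), COL4A1 and COL4A2 were not called at 12 h (0.31 and 0.15), and both turned negative at 24 h (-0.43 and -0.19).

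Among 18 tested genes for processing outside the cell and for elastic fibres, 7, 6 and 8 were called higher and 3, 4 and 5 lower. The share called was 55.6%, 55.6% and 72.2%, against 52.8%, 51.2% and 61.2% of all tested genes, and the median was 0.23, 0.24 and 0.24, against -0.0021, -0.033 and -0.065. TLL1 and TLL2, proteases of the family that cuts procollagen and also pro-LOX, had log2 fold changes of 2.03, 1.81 and 2.14 and of 0.74, 1.21 and 1.22, all called, but TLL2 at 6 h was not called without normoxic replicate 1 (0.62) or 3 (0.58), nor with library size alone at 6 and 24 h (0.42 and 0.31). EFEMP2, the fibulin that brings LOX to elastin, fell, with -1.49, -1.31 and -1.13 and levels of 2.12 to 2.47 CPM at 0 h and 0.644 to 1.16 CPM in hypoxia, although with quality weights the value at 24 h was not called (-1.09, limma adjusted p = 0.211). LOXL3, the remaining lysyl oxidase and named after its values were seen, was called higher at each time point (0.76, 0.90 and 1.18) from a mean of 0.776 CPM. With library size alone 3, 3 and 1 were called higher and 4, 4 and 10 lower.

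Of 16 tested genes that handle copper, ascorbate and 2-oxoglutarate, the cofactors and cosubstrate of these enzymes, 3, 4 and 6 were called higher and 6, 5 and 6 lower. The share called was 56.25%, 56.25% and 75%, against 52.8%, 51.2% and 61.2% of all tested genes, and the median was 0.019, -0.12 and 0.27, against -0.0021, -0.033 and -0.065. The metallothioneins MT2A and MT1X, which bind copper and zinc, had log2 fold changes of 1.83, 1.87 and 2.75 and of 0.89, 1.27 and 2.02. The call of MT1X at 6 h was lost without any of the 6 libraries compared (0.82 to 0.96), with library size alone (0.58) and with at least 10 counts in every library (0.81). At 24 h their 2 libraries were far apart, at 969 and 3094 CPM for MT2A and at 158 and 567 CPM for MT1X. ATP7B, a copper pump of the secretory pathway, fell, with -0.72, -0.81 and -1.62, but was not called at 6 h without normoxic replicate 2 (-0.63) or 6 h replicate 1 (-0.59) or 2 (-0.67), nor at 24 h with quality weights (-1.56, limma adjusted p = 0.0889). With library size alone 1, 2 and 3 were called higher and 6, 7 and 8 lower.

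**Figure D5:**
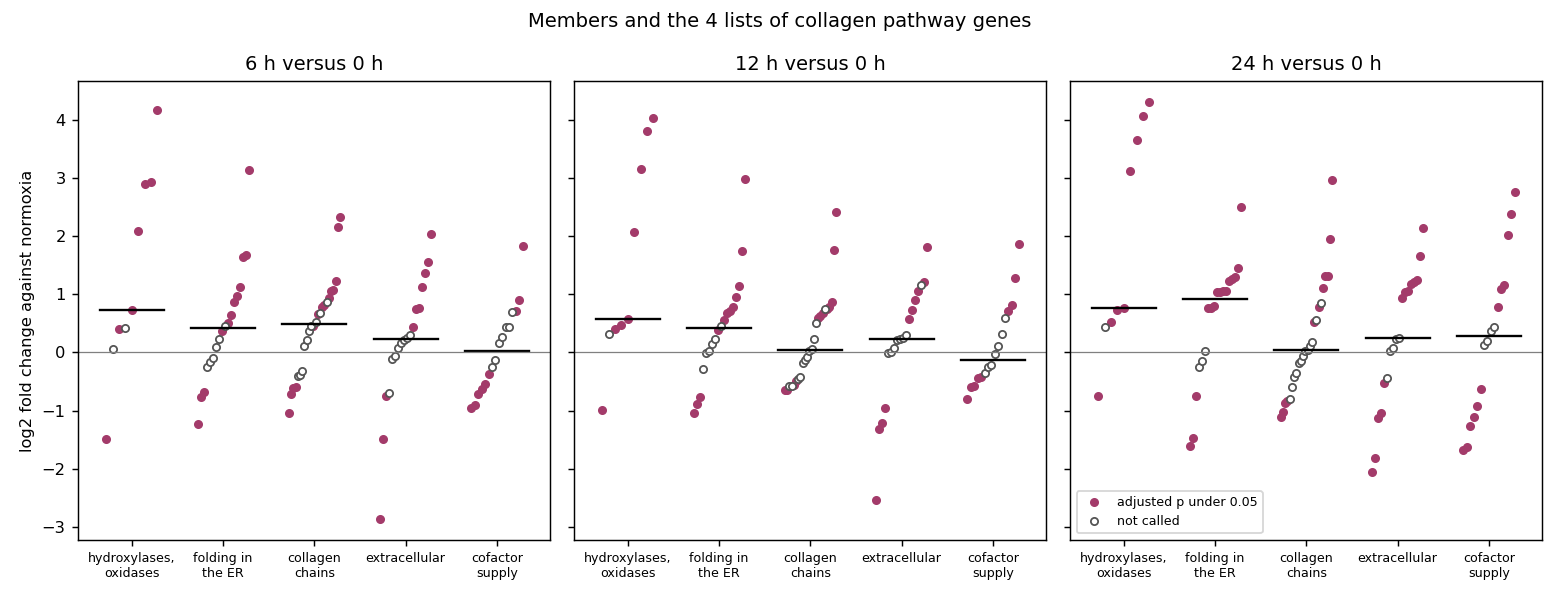
Log2 fold change against normoxia (edgeR fit, TMM) of each tested gene at 6, 12 and 24 h for the hydroxylases and lysyl oxidases and the 4 pathway lists, filled where called, with the median of each group as a line. The ER folding list has medians of 0.41, 0.42 and 0.91 and the chains of 0.49, 0.035 and 0.032, and with library size alone more genes of each of the 4 lists were called lower than higher at 24 h.

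Over the 11 libraries and 9018 genes with a mean of at least 10 CPM, the genes most alike in log2 CPM were sought for each member by Pearson's r, as a description only, since the libraries share the split between normoxia and hypoxia. PLOD2 was most like LDHAP5 (0.998), a pseudogene of LDHA that may share its reads, and GOLM1 (0.996). P4HA1 was most like SYS1 (0.995) and STK17A (0.992), LOX like PDK1 (0.992), a kinase that inhibits pyruvate dehydrogenase, and CCT5 (0.987), and LOXL2 like SNAI2 (0.993) and the long noncoding RNA UCA1 (0.992). P4HB was most like SSR3 (0.975), a subunit of the ER translocon-associated complex, and PSPC1 (0.965), and P4HA2 like PDIA3P1 (0.949), a pseudogene, and PDIA6 (0.927), a disulfide isomerase of the ER. PLOD1 was most like RAC2 (0.972) and RPL22P3 (0.951), PLOD3 like MARCKSL1 (0.978) and TDRP (0.968), and LOXL1 like TMEM69 (0.975) and DESI1 (0.971).

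Further overlaps concern LOX, 2.47% of whose exonic bases lie opposite SRFBP1, and LOXL2, 2.01% of whose exonic bases are shared with ENTPD4 on the same strand. SRFBP1 rose from 10.8 to 11.9 CPM at 0 h to 13.2 to 35.5 CPM in hypoxia. ENTPD4 stood at 21.2 to 24.7 CPM at 0 h, 21.9 to 26.8 CPM at 6 h, 15.8 to 18.5 CPM at 12 h and 8.67 to 9.58 CPM at 24 h. Antisense genes cover 5.41% of the exonic bases of P4HA2 (P4HA2-AS1, at most 0.080 CPM in any library), 2.97% of LOXL2 (LOXL2-AS1, at 0 in normoxia and at most 0.74 CPM in hypoxia), 4.75% of P4HB (an unnamed gene at 0 in all libraries), and 4.23% of LOXL4 and 1.52% of P4HA1 (unnamed genes at most at 0.034 and 0.065 CPM). The part of these genes in the members' counts was not tested.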

How the data were processed

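The authors trimmed the reads with Trimmomatic, mapped them to hg38 with STAR, used featureCounts to count reads by Ensembl gene, and deposited the whole-number counts, neither filtered nor normalized. The libraries were stranded, single-end and built in a single batch; the strand setting of the counting is not given in the sources used here. Of the 11 columns each was matched to a sample, and 0 were left over.

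Symbols, positions and lengths were taken from GENCODE release 44, which is later than the annotation the authors counted on (60357 identifiers found, 42009 with a symbol). From the counts, filterByExpr (minimum count 10, minimum total 15) kept 19981 genes. edgeR 4.0.16 (R 4.3.3) was fitted to the 11 libraries together, with TMM factors and 1 mean for each time point; the biological coefficient of variation was 19.6%. The SE is the absolute log2 fold change over the square root of F, and Benjamini-Hochberg adjustment covered all tested genes. Ratios used a prior count of 0.5 and log2 CPM a prior of 2. The 20 alternatives changed the test (limma 3.58.1 voom, with or without quality weights, DESeq2 1.42.0), the scaling, the filter, the libraries fitted, a replicate block, or left out 1 library. The edgeR test was also run on simulated counts in which few genes changed, equally up and down. That simulation does not bear on the scaling between libraries. Exact permutation tests used scipy 1.17.1.

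The 10 genes and the lists were chosen with earlier results of these data known. Beside the 10, the text names the 3 genes of each list with the largest absolute average log2 fold change among those called in one direction at all times with a mean of at least 1 CPM, the 2 most alike genes per member, and EGLN3 and CA9; P3H4, FKBP9, MIA2, LOXL3, marker genes and genes that overlap a member are named outside this rule. Of an exact test of 3 libraries against 3 the smallest p is 0.1, so none was run per gene. No 2 libraries had identical counts.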

Additional observations from a re-analysis of the deposited data

Results flagged for a closer look

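The difference in LOX between 24 h and 12 h was flagged because the effect of hypoxia differed between time points by a test of the difference itself. LOX was 1.05 higher at 24 h on the log2 scale (SE 0.22, edgeR quasi-likelihood test with Benjamini-Hochberg adjustment, adjusted p = 0.00577, higher in 2 of 2 libraries), with 21.7 and 16.9 CPM at 24 h against 8.02, 9.16 and 10.7 CPM at 12 h. With library size alone 24 h replicate 2 (9.10 CPM) lay within the 12 h libraries (7.29 to 10.0 CPM). Over the 20 alternatives the log2 fold change ran from 0.64 to 1.21 and the adjusted p from 1.31e-04 to 0.128. The call was lost with quality weights (0.95, adjusted p = 0.128), with library size alone (0.64, adjusted p = 0.115) and with only the compared time points in the fit (1.03, adjusted p = 0.0660), and it was kept in each fit that left out 1 library.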

How the results depend on the processing

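Of 900 recomputed log2 fold changes of the 9 tested genes 801 kept their direction and their side of the threshold, and 37 changed sign. P4HA1, PLOD2, LOX and LOXL2 at 6, 12 and 24 h against 0 h, and LOXL1 at 6 and 12 h, kept their calls in all 20 alternatives. Where a value below has no cause stated, the cause was not tested.

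Library size alone changed the sign of P4HA2 (-0.16 at 12 h and -0.47 at 24 h), P4HB (-0.065 and -0.17), PLOD3 (-0.0061 and -0.44), PLOD1 (-0.26 at 6 h and -0.17 at 24 h), COL4A1 (-0.43 at 24 h) and COL4A2 (-0.19 at 24 h) against 0 h, of P4HB from 6 to 12 h (-0.14), and from 12 to 24 h of P4HA2 (-0.31), P4HB (-0.10), PLOD1 (-0.27), PLOD2 (-0.18), PLOD3 (-0.44), LOXL1 (-0.29) and LOXL2 (-0.13). It called 5 of the 9 genes at 12 h and 0 from 12 to 24 h, and 7 and 6 genes of the ER folding list at 12 and 24 h. Of all genes called against 0 h it called 27.6%, 20.04% and 16.4% higher, against 47.6%, 47.2% and 48.8% with TMM factors. From 6 to 12 h it called 14.4% higher against 38.0%, and from 12 to 24 h 15.5% against 53.3%.

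PLOD1 at 6 h was -0.029 with quality weights and -0.028 with at least 10 counts in every library, and ran from -0.13 (without 6 h replicate 3) to 0.16 with 1 library left out. From 6 to 12 h P4HB was -0.019 with quality weights, -0.015 with DESeq2 and with median-of-ratios factors, -0.011 with at least 10 counts in every library and -0.032 to 0.029 with 1 library left out, P4HA2 was -0.21 to 0.11 with 1 left out (positive without 6 h replicate 3), and LOX was 0.030 with limma-voom, 0.063 with quality weights, 0.0059 with no filter and -0.21 to 0.096 with 1 left out. From 12 to 24 h PLOD3 was -0.041 with no filter and -0.18 to 0.22 with 1 left out, LOXL1 -0.36 to 0.66 (both lowest without 24 h replicate 2) and LOXL2 -0.048 to 0.54 (lowest without 12 h replicate 1). None of these steps between hypoxic times was called in the full fit.

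Quality weights called 20 chains and 14 cofactor genes at 12 h, 4 chains and 7 extracellular genes at 24 h, and 6169 of all genes at 24 h. From 6 to 12 h all genes called numbered 989, against 4489 with quality weights, 1919 with DESeq2, 1674 with no filter and 1876 with only the compared time points, and of the 9 genes 3, 2 and 1 were called with the first 3 of these. From 12 to 24 h the 5668 called became 1093 with quality weights and 0 with only the compared time points (5671 at an unadjusted p under 0.05, where DESeq2 on all libraries called 6594), and of the 9 genes DESeq2 called 3, while quality weights and only the compared time points called 0 (1 and 2 at an unadjusted p under 0.05).

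With 1 library left out, 9 to 18 chains and 6 to 11 extracellular genes were called at 6 h and 5 to 12 cofactor genes at 12 h. From 6 to 12 h 61 to 3649 of all genes and 0 to 2 of the 9 genes were called, with 3621 and 3649 in the fits lacking 1 of the 24 h libraries and 61 in the fit lacking 12 h replicate 3. From 12 to 24 h 3068 to 9491 of all genes were called, the fewest without 12 h replicate 2 and the most without 24 h replicate 1. A lone 24 h library is assumed to vary like the other groups. The log2 ratios ran from 2.74 to 2.89 (P4HA1 over P4HA2), 2.62 to 2.81 (P4HA1 over P4HB), 3.41 to 3.64 (PLOD2 over PLOD1), 3.33 to 3.46 (PLOD2 over PLOD3), 3.30 to 3.56 (LOX over LOXL1), -1.52 to -1.08 (LOX over LOXL2) and 1.78 to 2.44 (LOX over LOXL4). Without normoxic replicate 1 or 3 their adjusted p missed the threshold (0.0519, and 0.0889 for LOX over LOXL2), where the smallest exact permutation p of 8 libraries against 2 is 0.0444.

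No pairing by replicate number was seen: deviations of same-numbered libraries correlated at -0.16 to 0.21 over 15 pairs and of others at -0.27 to 0.28. Deviations from the means of so few libraries cannot show that the samples are unpaired. The fit with the replicate block called 510 of all genes from 6 to 12 h, and LOXL1 at 24 h was -0.68 (adjusted p = 0.0911). The 1 to 6 counts of LOXL4 limit any statement on it.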
